A study of Mus musculus with 42 samples.

Results

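Slc40a1, Hmox1, Spic, Hfe, Fth1, Ftl1, Tfrc, Slc11a1 and Trf are genes of haem breakdown, iron export, iron storage and iron uptake, together with the regulator of red pulp macrophages. They were taken by symbol, and all 9 were found among the 47719 Ensembl genes measured in every library. The RNA came from mouse spleen, split into B cells, T cells and what the labels call Non-BT cells. The genotype was Psmb8 +/+ (here wild type) in control animals and Psmb8 G201V/G201V (here homozygous) in the others, and no animal was treated. Psmb8 encodes a catalytic subunit of the immunoproteasome, and the stated aim was to find genes deregulated in the homozygous animals in each cell type. With 3 old and 4 young libraries per genotype and cell type there were 12 groups and 42 libraries, from 14 animal labels. Exact ages, strain, sex and the separation method are not given in the sources used here. In 3 of the young wild-type libraries, 1 per cell type, the genotype field reads Psmb9 +/+ while the title reads wild type. Beyond the title numbers nothing says that replicates were separate animals, so p-values measure the spread between these libraries.

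The red pulp of the spleen is where aged red blood cells are cleared. Its macrophages, which need the transcription factor Spic to develop, engulf the cells and open the haem ring with haem oxygenase (Hmox1), and the iron is either sent back to plasma through ferroportin (Slc40a1) or stored in ferritin, a shell of heavy (Fth1) and light (Ftl1) chains. Plasma iron travels on transferrin (Trf) and enters cells through the transferrin receptor (Tfrc), to which Hfe binds. Slc11a1 moves metal ions out of the phagosome.

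Iron itself controls several of these transcripts through the iron-responsive element, a hairpin bound by the iron regulatory proteins when iron is scarce. Binding in the 5′ UTR blocks translation, and binding in the 3′ UTR of Tfrc protects the mRNA from decay. The elements are shown because they mark the members whose mRNA can hold a site for these proteins. They were found by sequence pattern alone, and binding was not measured. The protein-coding transcripts of GENCODE M21 (GRCm38) were searched on the sense strand. The pattern was a C, 5 bases, the loop CAGTGN with A, C or T as its last base, and 5 more bases. The last 5 bases had to pair with the first 5, G-T pairs included. A match was held by 4 of the members, and by 222 of 21901 protein-coding genes (1.01%). Capitals mark the bulged C and the loop.
Fth1 (5′ UTR, chr19:9982732-9982761, plus strand): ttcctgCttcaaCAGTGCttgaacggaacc
Ftl1 (5′ UTR, chr7:45459778-45459807, minus strand): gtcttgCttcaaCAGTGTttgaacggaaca
Slc40a1 (5′ UTR, chr1:45925464-45925493, minus strand): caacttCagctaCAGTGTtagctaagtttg
Tfrc (3′ UTR, chr16:32631219-32631248, plus strand): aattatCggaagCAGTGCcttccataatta
Tfrc (3′ UTR, chr16:32631598-32631627, plus strand): cattatCgggagCAGTGTcttccataatgc
Tfrc (3′ UTR, chr16:32631663-32631692, plus strand): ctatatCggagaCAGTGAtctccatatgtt
Tfrc (3′ UTR, chr16:32631710-32631739, plus strand): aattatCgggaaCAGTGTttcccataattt
The ferritin chains and ferroportin each held 1 match and Tfrc held 4. In the other 5 members no match with a full window of 30 bases was found in a protein-coding transcript.

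All values are FPKM, that is fragments scaled by transcript length and library size. Depth was estimated at 9490000 to 25750000 fragments a library, so that 1 FPKM of a 2 kb transcript stood for 19.0 to 51.5 fragments. Replicate libraries were alike across genes, with Pearson's r between 0.9715 and 0.9901. B cell markers summed to between 6440 and 7140 FPKM in young wild-type B cells and to at most 89.3 FPKM in the other 2 preparations. T cell markers summed to between 4570 and 4890 FPKM in T cells and to at most 360.0 FPKM in the others. Markers of red pulp macrophages were present in every preparation. Their sum in young wild-type libraries was 758 to 1030 FPKM in B cells, 346 to 491 FPKM in T cells and 850.0 to 1030 FPKM in non-BT cells. By their mean log2(FPKM + 1) the order was another, with B cells highest at 5.08 ± 0.10 (SD, n = 4). T cells stood at 4.29 ± 0.13 and non-BT cells at 4.13 ± 0.05. In non-BT against B cells 9 markers were negative and 5 positive, with a median log2 difference of -1.85. None of the 14 markers was at 0 in all libraries of any group. The variant is a single amino acid change, so the level of Psmb8 is no check on the genotypes.

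In young wild-type spleen the storage genes stood far above the others, and the members divided by preparation. Ftl1 stood at 4930 ± 450.0 FPKM (SD, n = 4) in non-BT cells, 2520 ± 372 FPKM in B cells and 1800 ± 174 FPKM in T cells. Fth1 stood at 3350 ± 48.6, 2470 ± 215 and 1360 ± 101 FPKM in the same order. No library of 1 preparation overlapped another for either gene. Hfe stood at 104 ± 5.18 FPKM in non-BT cells against 16.5 ± 4.87 in B cells and 13.9 ± 1.58 in T cells, and Slc11a1 at 152 ± 33.2 against 30.5 ± 4.98 and 18.7 ± 4.12. The lowest non-BT library of Hfe or Slc11a1 lay above every B and T library. The B and T libraries overlapped for Hfe and not for Slc11a1. Slc40a1 had its highest mean in B cells, at 190.0 ± 14.6 FPKM, then 128 ± 25.0 in non-BT cells and 77.5 ± 10.4 in T cells, the last 2 overlapping. Trf stood at 198 ± 25.5 FPKM in non-BT, 146 ± 22.8 in B and 83.6 ± 15.3 in T cells, without overlap. Hmox1 stood at 81.9 ± 17.4 FPKM in B cells and 64.9 ± 8.15 in non-BT cells, which overlapped, and at 34.4 ± 3.82 in T cells, below both. Spic had the order of Slc40a1, with 43.7 ± 5.28, 19.8 ± 3.60 and 18.0 ± 4.33 FPKM, its non-BT and T libraries overlapping. Tfrc had the lowest mean of the members in non-BT, B and T cells, at 19.0, 11.8 and 9.05 FPKM.

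**Figure D1:**
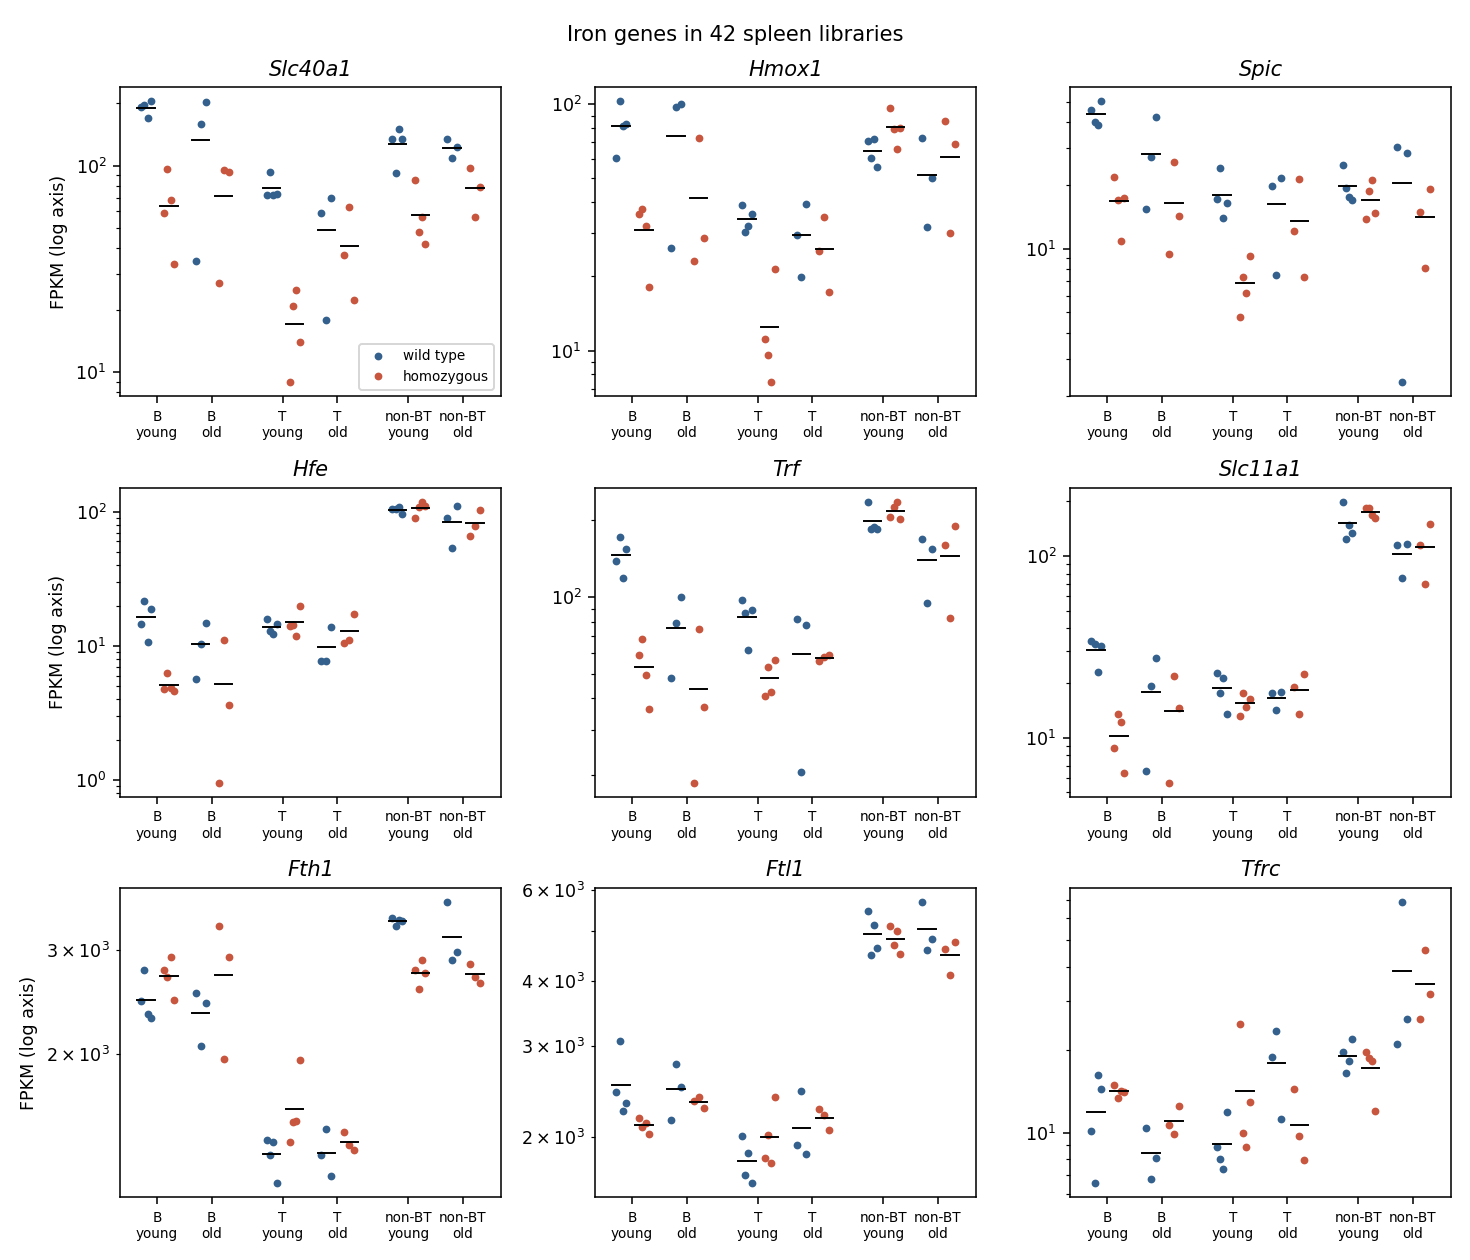
Level of each iron gene in every library. The vertical axis is FPKM on a log scale with its own range per gene, points are libraries (4 per young group, 3 per old group), bars are group means, blue is wild type and red homozygous. In young B cells the homozygous points of Slc40a1 (33.5 to 95.8 FPKM) lie below every wild-type point (170.0 to 205 FPKM), and Fth1 and Ftl1 stand above the other 7 genes in every library.

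The preparations of young wild-type animals were compared in a fit of all 42 libraries that kept the animal as a block (limma on log2(FPKM + 1), Benjamini-Hochberg adjustment over 15143 genes, threshold 0.05). In non-BT against B cells Hfe, Slc11a1, Ftl1, Tfrc and Fth1 were higher by 2.63 ± 0.30 (SE), 2.27 ± 0.30, 0.97 ± 0.11, 0.70 ± 0.28 and 0.45 ± 0.11 on the log2 scale. Of all genes, 28.4% passed as higher in non-BT cells. Spic was lower by a log2 difference of -1.11 ± 0.43 (adjusted p = 0.0308), a direction in which 20.0% of genes passed. The calls of Spic and Tfrc were lost with no filter on low values (adjusted p of 0.0629 and 0.0713) and in 5 each of the 12 fits that left out 1 young wild-type library (adjusted p up to 0.0719 and 0.188). That of Tfrc was also lost with quantile normalization (0.51, adjusted p = 0.118). Against T cells 7 members were higher in non-BT cells, from Slc11a1 at 2.96 ± 0.30 to Hmox1 at 0.90 ± 0.36, where 27.4% of all genes passed. In B against T cells 6 members were higher, among them Slc40a1 (1.29 ± 0.42), Spic (1.25 ± 0.43) and Hmox1 (1.21 ± 0.36), where 15.6% of all genes passed. The call of Hmox1 between non-BT and T cells was lost with quantile normalization (adjusted p = 0.0663), with no filter (adjusted p = 0.077) and in 6 of the 12 fits (up to 0.0892). That of Trf between B and T cells was lost in all 12 (adjusted p from 0.0501 to 0.146) and under each of the 4 other settings tried, the quantile, filter, pseudocount and animal block ones (adjusted p from 0.0503 to 0.0973). That of Ftl1 between B and T cells was lost with quantile normalization too, at 0.13 (adjusted p = 0.54).

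Ferroportin, the only known exporter of iron from cells, was the only member called between genotypes in young animals. In young non-BT cells the 4 wild-type libraries held 135, 91.6, 150.0 and 135 FPKM of Slc40a1 and the 4 homozygous libraries 85.5, 47.6, 56.5 and 41.6 FPKM. Every homozygous library lay below every wild-type library. Slc40a1 fell by 1.16 ± 0.22 (SE) on the log2 scale, a fall to 57.8 ± 19.5 from 128 ± 25.0 FPKM (limma adjusted p = 0.0225, 13587 genes). It was the only member that passed there, and 1.46% of all genes passed as lower. In old non-BT cells the wild-type libraries held 134, 109 and 123 FPKM and the homozygous ones 97.5, 56.6 and 78.6 FPKM, again without overlap. The old difference was -0.68 ± 0.26 and did not pass (adjusted p = 0.800). No gene of 13587 passed in old non-BT cells (0.0%), with 785 genes and 1 member at an unadjusted p under 0.05. Averaged over both ages Slc40a1 fell by 0.92 ± 0.17 (adjusted p = 0.0223), where 0.986% of all genes passed as lower. The averaged call was lost without old wild-type replicate 1 or 3, old homozygous replicate 3, young wild-type replicate 3 or young homozygous replicate 2. The young call was lost with values rescaled to TPM (-1.11, adjusted p = 0.0703), with no filter on low values (adjusted p = 0.0539) and without the Psmb9-labelled libraries (-1.13, adjusted p = 0.0745), and leaving out single libraries moved the difference from -1.36 to -1.02 with the call lost in 6 of those fits (adjusted p up to 0.0821). Those fits left out young wild-type replicate 1, 3 or 4 or young homozygous replicate 2, 3 or 4.

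In young B and T cells the Slc40a1 libraries were also separated by genotype, but the test did not call them. The young B cell libraries held 192, 195, 170.0 and 205 FPKM in wild type and 58.8, 95.8, 68.1 and 33.5 FPKM in homozygous animals. The young T cell libraries held 71.8, 93.1, 72.2 and 72.7 FPKM in wild type and 8.93, 20.9, 24.9 and 13.95 FPKM in homozygous animals. Neither pair of groups overlapped. The log2 differences were -1.65 ± 0.50 in B cells (adjusted p = 0.264) and -2.19 ± 0.41 in T cells (adjusted p = 0.0716). In old animals the groups overlapped. Old B cells held 34.4, 159 and 204 FPKM in wild type and 26.9, 94.7 and 92.7 FPKM in homozygous animals, and the libraries numbered 1 were the lowest of both genotypes. Old T cells held 58.9, 17.9 and 69.4 FPKM against 36.8, 63.0 and 22.4 FPKM. The old differences were -0.74 ± 0.58 and -0.16 ± 0.47. In old B cells each same-numbered pair of libraries deviated from its group means together. The homozygous library of a pair was the lower one in 3 of 3 pairs for Slc40a1, Hmox1, Spic and Trf. It was the lower one in 2 of 3 for Hfe, Ftl1 and Slc11a1, in 1 for Fth1 and in 0 for Tfrc. The share of all genes lower in 3 of 3 pairs was not counted. With the number as a block Slc40a1 differed in old B cells by -0.74 ± 0.25 and did not pass (adjusted p = 0.259). That limma fit blocked the young B cell libraries by number as well, and its estimate of the spread was shared by both ages.

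Hmox1, which opens the haem ring, and Spic, the regulator, were lower in every homozygous young B and T cell library than in any wild-type one, a separation not seen in young non-BT cells. Hmox1 in young B cells stood at 60.3, 103, 81.7 and 83.0 FPKM in wild type and at 35.7, 37.4, 32.0 and 18.1 FPKM in homozygous animals. In young T cells it stood at 38.9, 30.4, 32.2 and 36.0 FPKM and at 11.2, 9.58, 7.43 and 21.5 FPKM. All homozygous libraries were below all wild-type libraries in both preparations. In young non-BT cells the order was not kept, with 71.1, 60.6, 72.4 and 55.6 FPKM in wild type and 96.5, 79.6, 65.7 and 80.4 FPKM in homozygous animals, groups that overlapped. The log2 differences of Hmox1 were -1.41 ± 0.42 in B cells (adjusted p = 0.248), -1.49 ± 0.29 in T cells (adjusted p = 0.0847) and 0.30 ± 0.29 in non-BT cells (adjusted p = 0.697). Spic stood at 45.8, 39.9, 38.9 and 50.2 FPKM in wild-type and at 21.9, 17.1, 10.9 and 17.5 FPKM in homozygous young B cells. In young T cells it stood at 17.3, 24.2, 14.1 and 16.5 FPKM and at 4.73, 7.37, 6.19 and 9.26 FPKM. These groups did not overlap, and the differences were -1.36 ± 0.30 in B cells (adjusted p = 0.113) and -1.28 ± 0.34 in T cells (adjusted p = 0.207). Spic in young non-BT cells ran from 17.1 to 25.0 FPKM in wild type and from 13.9 to 21.1 FPKM in homozygous animals.

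Hfe, Trf and Slc11a1, each highest in non-BT cells, were lower in every homozygous young B cell library than in any wild-type one. Hfe in young B cells stood at 14.5, 21.8, 10.7 and 18.9 FPKM in wild type and at 4.81, 6.26, 4.86 and 4.60 FPKM in homozygous animals. Trf stood at 139, 172, 119 and 154 FPKM against 59.1, 68.6, 49.2 and 36.4 FPKM. Slc11a1 stood at 34.1, 32.6, 23.1 and 32.2 FPKM against 8.80, 13.4, 12.1 and 6.38 FPKM. None of these 3 pairs overlapped. The log2 differences were -1.47 ± 0.43 (adjusted p = 0.246), -1.46 ± 0.33 (adjusted p = 0.114) and -1.53 ± 0.40 (adjusted p = 0.174). In young T cells Trf was lower without overlap as well, at 61.8 to 97.4 FPKM in wild type and 41.0 to 56.6 FPKM in homozygous animals (-0.78 ± 0.33, adjusted p = 0.512). Hfe and Slc11a1 overlapped there, and all 3 genes overlapped in young non-BT cells. Averaged over both ages in B cells Trf passed, with a fall of 1.20 ± 0.26 (adjusted p = 0.0494), where 0.473% of all genes passed as lower. The call was lost without the Psmb9-labelled libraries (adjusted p = 0.0965) and in 12 of 14 fits that left out 1 library, with differences from -1.45 to -0.96. It held when old homozygous replicate 2 or old wild-type replicate 1 was the library left out.

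In young B cells 7 of the 9 members were thus lower in every homozygous library than in every wild-type library, Ftl1 being the seventh, against 5.63% of the 12269 genes tested. In young T cells 4 members were, against 3.44% of 13193 genes, and in young non-BT cells 2 were (Slc40a1 and Fth1, but with quantile normalization only Slc40a1), against 7.91% of 13587 genes. In old non-BT cells the same 2 members were, against 3.55%, but 0 were with values rescaled to TPM. No member was higher without overlap in any genotype comparison. The members were chosen with earlier results of these data known, and several varied together. Pairs among Slc40a1, Hmox1, Spic and Trf had r from 0.68 to 0.78. The counts are therefore not of independent genes, and the shares of all genes beside them are a description only. By the test no member passed in young B cells, where 0.0734% of all genes passed, or in young T cells, where 0.0% did. An unadjusted p under 0.05 was reached in B cells by 7 members beside 1152 of 12269 genes. In T cells 4 members reached it beside 1144 of 13193 genes. The median log2 difference of the 9 members in young B cells was -1.41 beside -0.02 over all genes tested. It was -0.24 beside 0.0 in T cells and -0.03 beside -0.02 in non-BT cells. The test shares 1 estimate of the spread among young and old libraries. With the young libraries alone 6 members passed in B cells (Slc40a1, Hmox1, Spic, Hfe, Slc11a1 and Trf, adjusted p from 0.0018 to 0.00689), where 1.43% of all genes passed as lower. In T cells 3 passed in such a fit (Slc40a1, Hmox1 and Spic, adjusted p from 0.00732 to 0.0292), where 0.532% of all genes did. Without the old animals numbered 1, an alternative chosen after seeing the data, the same 6 passed in B cells, where 0.675% of all genes passed as lower.

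**Figure D2:**
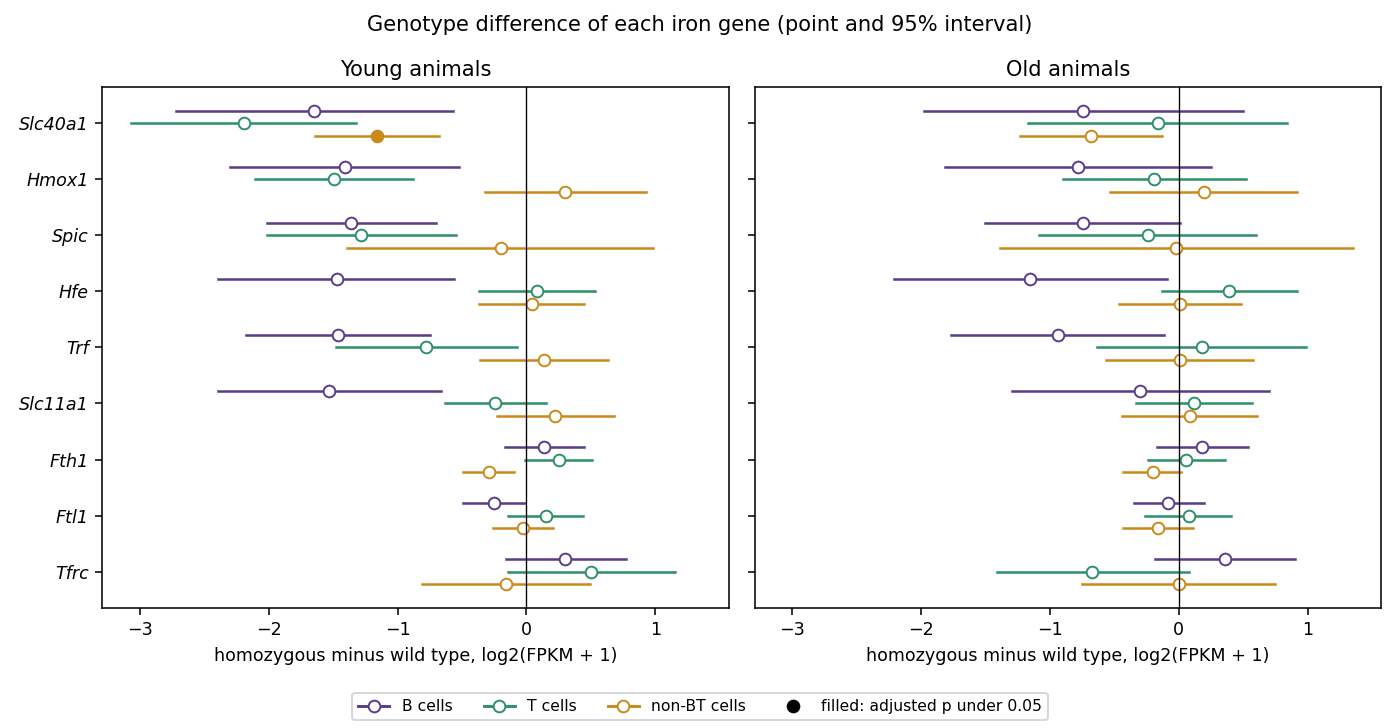
Difference between homozygous and wild-type libraries for each iron gene, in log2(FPKM + 1), with young animals on the left and old animals on the right. Points are limma estimates, lines their 95% intervals, colours the 3 cell preparations, and a filled point has an adjusted p under 0.05. Slc40a1 in young non-BT cells (-1.16) is the single filled point, and the young B cell estimates of 6 genes lie between -1.65 and -1.36.

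Markers of red pulp macrophages were lower beside these genes in young B and T cells, and those of other cell types also differed. In young non-BT cells the mean log2 level of the macrophage markers was lower too, but their sum was not. The list of 14 red pulp macrophage markers (Cd163, Vcam1, C1qa and others, no member among them) summed to 758 to 1030 FPKM in wild-type and 198 to 329 FPKM in homozygous young B cells. It summed to 346 to 491 and to 133 to 209 FPKM in young T cells. In both, all 13 markers tested were negative, with a median of -1.66 in B cells, where Cd163 passed, and of -1.45 in T cells, where none passed (Cd163 at -2.41 ± 0.44, adjusted p = 0.0716). In young non-BT cells the sum was 850.0 to 1030 FPKM in wild type and 973 to 1150 FPKM in homozygous animals, 9 markers were negative and 4 positive, and the median was -0.30. In young B cells the monocyte markers summed to 166 to 219 FPKM in wild-type and 84.3 to 96.6 FPKM in homozygous libraries, and the erythroid markers to 213 to 1040 and 56.1 to 189 FPKM, both without overlap. Csf1r and Treml4 stood on both the macrophage and the monocyte list, so the sums of these lists were not independent. Their part in the lower monocyte sum was not tested. The mean log2 level of the monocyte list moved less, from 2.35 ± 0.12 to 2.13 ± 0.06 (SD, n = 4). Of the 5 monocyte markers tested in young B cells 3 were negative and 2 positive, with a median of -0.31. All 8 T cell and all 10 proliferation markers were negative there. In young non-BT cells all 10 monocyte markers were positive, with sums of 1580 to 1920 and 2030 to 2210 FPKM, and so were all 10 proliferation markers. The shared Csf1r and Treml4 were thus among the 4 positive macrophage markers and entered both sums in young non-BT cells. All 8 T cell markers and the 7 B cell markers tested were negative there, Blnk passing. The neutrophil markers summed to 12400 to 14900 and to 10100 to 38000 FPKM, and 2 of them fell (Csf3r and Cxcr2). The part of these cell types in the differences of the members was not tested. In such mixed preparations fewer macrophages and less RNA per macrophage cannot be told apart. Set against the mean log2 level of the 14 markers, Slc40a1 lay 2.50 ± 0.03 (SD, n = 4) above it in wild-type and 2.45 ± 0.38 above it in homozygous young B cells. It lay 1.99 ± 0.20 and 1.10 ± 0.61 above it in young T cells, and 2.85 ± 0.30 and 2.05 ± 0.59 above it in young non-BT cells. Hmox1 lay 1.27 ± 0.29 and 1.46 ± 0.23 above the markers in young B cells, and 1.90 ± 0.16 and 2.57 ± 0.33 above them in young non-BT cells. In young T cells Hmox1 lay 0.85 ± 0.14 and 0.65 ± 0.46 above them. For Spic the figures were 0.39 ± 0.14 and 0.64 ± 0.43 in B cells and -0.07 ± 0.26 and -0.04 ± 0.07 in T cells. In non-BT cells they were 0.23 ± 0.19 and 0.39 ± 0.25. Other members stood higher against the markers in homozygous than in wild-type young T cells. Hfe went from -0.40 ± 0.08 to 0.98 ± 0.19, Slc11a1 from -0.02 ± 0.36 to 1.04 ± 0.19 and Trf from 2.09 ± 0.16 to 2.62 ± 0.10. Fth1, Ftl1 and Tfrc were also higher against them there.

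**Figure D3:**
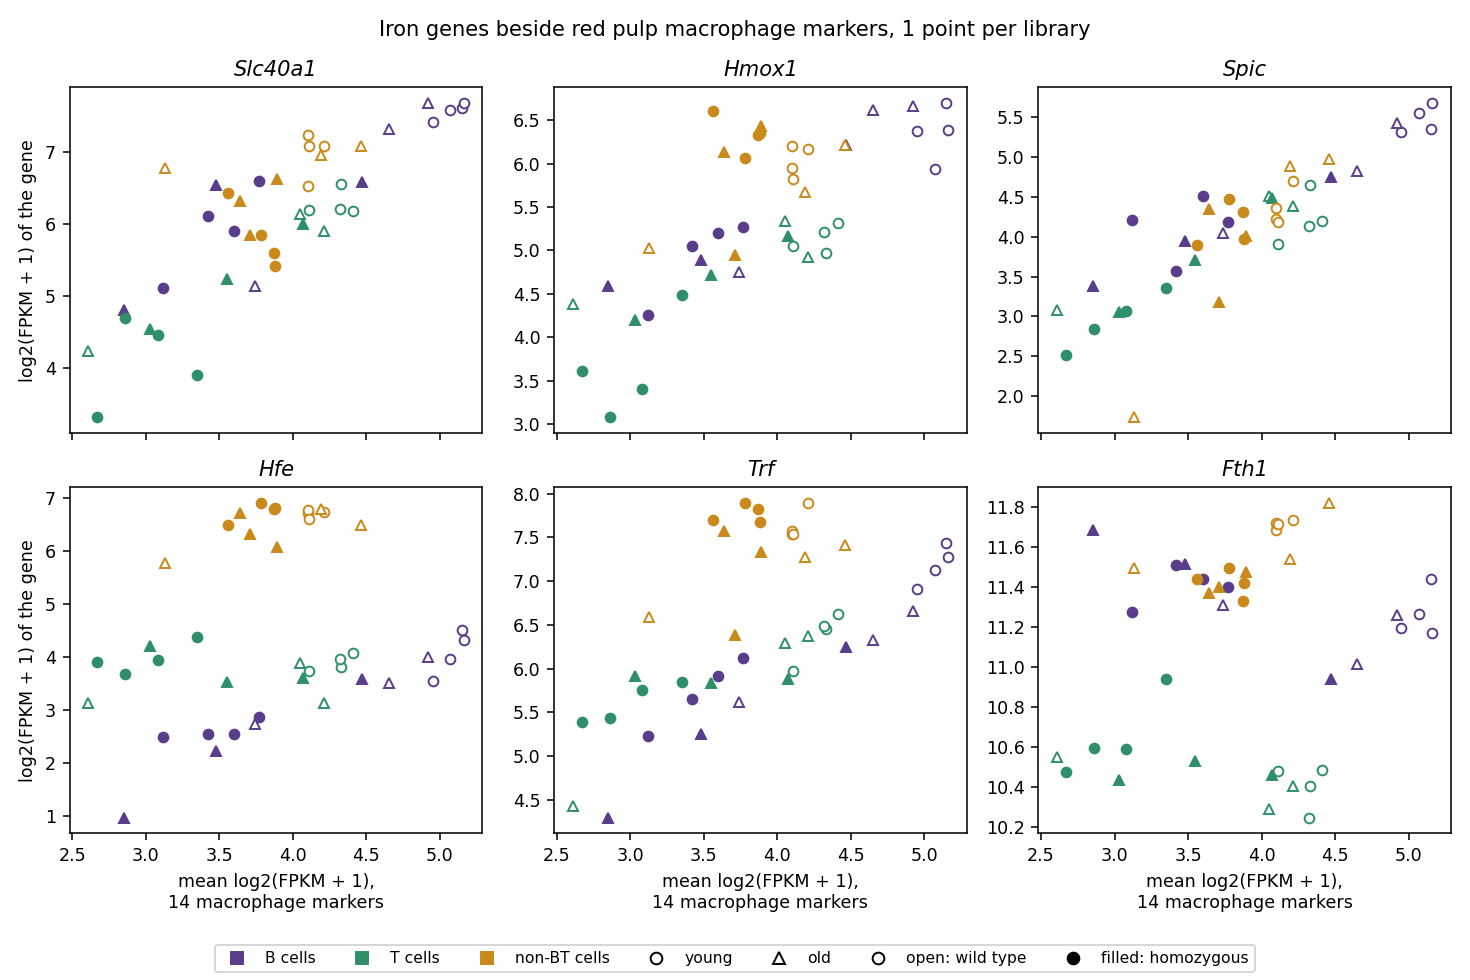
Level of 6 iron genes against the mean level of 14 red pulp macrophage markers, both as log2(FPKM + 1), with 1 point per library. Colours are the cell preparations, circles young and triangles old animals, open symbols wild type and filled symbols homozygous. Young homozygous B cells (3.12 to 3.77 on the horizontal axis) lie to the left of young wild-type B cells (4.95 to 5.16), and Hfe forms a separate band in non-BT cells.

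The library names fall into 3 number ranges, which hold old replicates 1 and 2, old replicate 3 with young replicates 1 and 2, and young replicates 3 and 4, with both genotypes in each. Within the 2 ranges of young libraries (2 against 2 each) the log2 difference of Slc40a1 was -0.79 and -1.53 in non-BT cells, -1.35 and -1.94 in B cells and -2.49 and -1.90 in T cells. Hmox1 differed by -1.09 and -1.73 in B cells and by -1.64 and -1.35 in T cells, and Spic by -1.10 and -1.61 and by -1.63 and -0.92. Each sign was the same in both ranges. In old T cells the sign of Slc40a1 was not, at 0.55 in the first range (2 against 2) and -1.59 in the second (1 against 1). Old and young groups share only 1 range, so age and library range cannot be fully told apart.

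Among the storage genes the heavy chain lay lower in every homozygous non-BT library than in any wild-type one of its age. Fth1 stood at 3399, 3285, 3370.0 and 3359 FPKM in wild-type and at 2775, 2572, 2879 and 2738 FPKM in homozygous young non-BT cells. In old non-BT cells it stood at 3610.0, 2885 and 2974 FPKM against 2838, 2703 and 2641 FPKM. The groups did not overlap at either age, a separation lost with quantile normalization and, in old animals, with TPM. The differences were small, at -0.29 ± 0.09 (adjusted p = 0.139) and -0.20 ± 0.10 (adjusted p = 0.895). With the young libraries alone Fth1 passed (adjusted p = 0.0414), as did Slc40a1 (adjusted p = 0.0158), where 4.16% of all genes passed as lower. In young B and T cells the difference of Fth1 was 0.14 ± 0.14 and 0.25 ± 0.12. Ftl1, the light chain, differed by -0.03 ± 0.11 in young non-BT cells, with a 95% interval from -0.26 to 0.21. In young B cells it stood at 2442, 3065, 2242 and 2329 FPKM in wild type and at 2172, 2095, 2131 and 2026 FPKM in homozygous animals, a difference of -0.25 ± 0.11 (adjusted p = 0.502). Processed copies of both genes are annotated, the highest being Ftl1-ps1 at up to 31.5 FPKM, and how reads were divided among them is not stated, so the values of Fth1 and Ftl1 are uncertain to that extent.

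Tfrc, the entry route for transferrin iron, showed no genotype difference that passed. It stood at 19.6, 16.5, 18.1 and 21.9 FPKM in wild-type and at 19.6, 18.7, 18.2 and 11.98 FPKM in homozygous young non-BT cells (-0.16 ± 0.30, 95% interval from -0.81 to 0.49). In old non-BT cells wild-type replicate 2 stood at 68.6 FPKM and the other two at no more than 25.9 FPKM, against 25.7, 46.0 and 31.8 FPKM in homozygous animals. The replicates numbered 2 were the highest of both old groups. Old wild-type replicate 2 also held the most erythroid marker RNA, 12600 FPKM summed over 10 genes beside 1110 and 2690 FPKM in the other wild-type libraries, and the lowest Spic, at 2.32 FPKM beside 30.5 and 28.5 FPKM. The part of erythroid cells in these values was not tested.

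No member passed between old and young animals. In wild type 0.0% of genes passed in B cells (768 genes and 3 members at an unadjusted p under 0.05), 0.227% did in T cells, and 0.199% did in non-BT cells. In homozygous animals 0.0163%, 1.14% and 2.16% passed. The largest wild-type differences in B and in T cells, old minus young, were -0.99 ± 0.36 for Trf in B cells (adjusted p = 0.721) and 0.87 ± 0.32 for Tfrc in T cells (adjusted p = 0.349). Tfrc in non-BT cells differed by 0.79 ± 0.32 in wild type and by 0.95 ± 0.32 in homozygous animals, whose old libraries (25.7 to 46.0 FPKM) all lay above the young ones (11.98 to 19.6 FPKM), as did those of 6.29% of all genes. Slc11a1 and Trf were lower in every old than in any young non-BT library of both genotypes, at -0.56 ± 0.23 and -0.54 ± 0.25 in wild type (adjusted p of 0.267 and 0.310) and -0.70 ± 0.23 and -0.67 ± 0.25 in homozygous animals (adjusted p of 0.149 and 0.200). Of all genes, 8.96% and 8.54% were lower without overlap. Elsewhere Trf in wild-type B cells, Tfrc in homozygous B cells and Slc40a1 in wild-type T cells were lower with age without overlap, and Ftl1 in homozygous B cells was higher (4.27%, 7.91%, 5.18% and 5.57% of all genes in turn). In homozygous T cells Slc40a1 and Hmox1 differed by 1.17 ± 0.44 and 1.05 ± 0.31 (adjusted p of 0.240 and 0.142). No member passed for the genotype difference in old animals either, where 0.00815% of genes passed in B cells and 0.0% in T cells. An unadjusted p under 0.05 was reached by 2 members and 1237 genes in B cells and by 0 members and 502 genes in T cells. The difference between old and young genotype effects passed for no gene in B, T or non-BT cells (0.0% each, limma), with 868, 511 and 723 genes and 0, 3 and 0 members at an unadjusted p under 0.05. The widest member estimate was 2.03 ± 0.62 for Slc40a1 in T cells, which at an adjusted p of 0.998 does not show that the effect differs with age. Averaged over both ages in T cells no member passed (0.00758% of all genes did), with Slc40a1 at -1.18 ± 0.31 (adjusted p = 0.277).

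The averaged genotype effect was compared between preparations over all 42 libraries. The effect on Hfe was more negative in B cells than in T cells, by -1.55 ± 0.33 (adjusted p = 0.0404, 0.132% of all genes passed), and than in non-BT cells, the non-BT minus B difference being 1.34 ± 0.33 (adjusted p = 0.0479, 0.555% of all genes passed). Hfe was the only member that passed. Its calls were lost in 6 and 11 of 12 fits that each left out 1 young wild-type library, with adjusted p up to 0.0724 and 0.0838, and in both without the animal block (adjusted p of 0.0712 and 0.0804). For Trf and Hmox1 the non-BT minus B difference was 1.27 ± 0.34 and 1.34 ± 0.39 (adjusted p of 0.0906 and 0.127), and for Slc40a1 it was 0.27 ± 0.46, with a 95% interval from -0.66 to 1.20. Between non-BT and T cells no member passed (0.357% of all genes did), with 2 members and 1221 of 15143 genes at an unadjusted p under 0.05.

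Among the other genes of iron handling 64 were listed, of which 49 could be tested for B cells, 51 for T cells and 55 for non-BT cells. In the young, old and averaged genotype comparisons 2 passed, 1 in the B cell average, where 0.473% of all genes passed as lower, and 1 in the non-BT average, where 0.986% did. Lrp1, the receptor for haem bound to haemopexin, fell in B cells over both ages by 0.88 ± 0.17 (adjusted p = 0.0372), from 3.62 ± 0.549 to 2.23 ± 0.690 FPKM in young and from 3.91 ± 1.24 to 1.10 ± 0.449 FPKM in old libraries. In non-BT cells, where Lrp1 stood at 32.8 ± 6.20 FPKM in young wild type, its averaged difference was 0.56 ± 0.27 (adjusted p = 0.419). Iscu, the scaffold on which iron-sulphur clusters are built, fell in non-BT cells over both ages by 0.35 ± 0.07 (adjusted p = 0.0301), with young means of 170.0 ± 16.4 and 134 ± 5.25 FPKM and old means of 167 ± 21.5 and 128 ± 4.14 FPKM. The lists of iron sensing and ferritin turnover, other iron transport, the hepcidin pathway, and Bach1 and Nrf2 with their shared targets had no gene past the threshold. In young non-BT cells the widest median among these lists was 0.17, that of Bach1 and Nrf2 with their targets, beside -0.02 over all genes. Slc48a1, which carries haem out of the lysosome, differed by -0.51 ± 0.14 in young B cells (adjusted p = 0.200). Nqo1, a target of Nrf2, differed by 1.02 ± 0.34 in young T cells (adjusted p = 0.384), and Slc7a11, the cystine carrier, by -0.74 ± 0.25 in young non-BT cells (adjusted p = 0.174).

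The genes whose pattern was most like that of a member were found by Pearson's r of log2(FPKM + 1) over the 42 libraries, after each preparation was centred on its own mean, among 15143 genes. The libraries share animal labels, and the level of macrophage markers varied among them, so r is a description. Slc40a1 was most like Vcam1 (r = 0.88), the adhesion molecule that marks red pulp macrophages, then Clec4n (0.87) and Fcna (0.85). Spic was most like C1qb (0.81) and Mrc1 (0.80), and Hmox1 most like Abcc3 (0.86) and Sdc3 (0.84), with Ctsb and Sdc3 in the third places (0.81 for Hmox1 and 0.79 for Spic). Trf was most like Csf1r (0.95), the receptor for macrophage colony-stimulating factor, then Adgre4 (0.91) and Hpgd (0.85). Hfe was most like Treml4 (0.89), Aif1 (0.87) and Cd68 (0.86), and Slc11a1 like Adgre4 (0.88), Treml4 (0.87) and Fcgr3 (0.86). Tfrc was most like Apol8 (0.77), Slc25a37 (0.74), the importer of iron into mitochondria of red cell precursors, and Ank1 (0.74), the ankyrin of the red cell membrane. For the ferritin chains the likest genes were Hist1h2bc (0.77), Trappc5 and S100a11 (0.74 each) for Fth1, and Cyba and Ehd4 (0.73 each) and Slc48a1 (0.72) for Ftl1. Among the members the pairs Hfe with Trf and Slc11a1 with Trf had the highest r (0.82 each), while Fth1 with Slc40a1 stood at -0.26.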

How the data were processed

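Per the labels' protocols, RNA was extracted with RNeasy micro, cDNA was made with SMART-Seq HT and libraries with Nextera XT, kits that mark neither strand nor molecule. The deposited values are FPKM calculated by the authors, 1 file per library. The submitters' processing notes name Cufflinks 2.2.1, Cuffdiff, HISAT2 2.1.0 and build GRCm38.p4, and the annotation is not given in the sources used here. Of 47719 identifiers, 47219 matched GENCODE M21. The members lie on chromosomes 1 (Slc40a1, 45908068 to 45926523, and Slc11a1), 7, 8, 9, 10, 13, 16 and 19. Trf and Ftl1 each overlap 1 gene on the same strand (at most 0.901 FPKM).

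Values were analysed as log2(FPKM + 1), a scale that understates changes of low genes, with limma 3.58.1 in R 4.3.3 (eBayes with trend). A gene was tested if 3 or more of the 14 libraries of a cell type reached 1 FPKM. Each fit held the 4 groups of a cell type. Tests were two-sided, p-values were adjusted by Benjamini-Hochberg over every gene tested in that cell type, and the threshold was 0.05. All 9 members passed the filter in each cell type. Preparations were compared in a fit of 42 libraries with the animal as a block (correlation 0.0771). Depth was estimated from the step that 1 fragment makes in the values of 5671 genes. The fit was tested on simulated data. Named genes were the members, the 3 genes most like each, and pathway genes past the threshold or among the smallest p of a list. The members and lists were chosen with earlier results of these data known. Ahsp had no match. Alternatives were the pseudocount (0.1), the filter, quantile and TPM scaling, array weights, the replicate block, and left-out libraries. Same-numbered libraries of both genotypes had correlated deviations (r above 0.1) in 12 of 21 pairs, and the wild-type library correlated best with its own number in 15. Every pair had r above 0.1 only in old B cells (r from 0.19 to 0.29), where the number was taken to pair libraries. In old T cells every wild-type library also correlated best with its own number, at r of 0.10, 0.21 and 0.13. Outside old B cells the number was not taken to pair libraries, which does not show that these libraries share nothing.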

Additional observations from a re-analysis of the deposited data

Results flagged for a closer look

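Within the 54 young groups of 4 libraries (9 genes in 6 groups), 3 held a library whose gap to its neighbour was large for the group's range, and chance flags about 2.7. They were Slc40a1 in 1 wild-type T cell library (93.1 FPKM, the others 71.8 to 72.7), Hfe in 1 homozygous B cell library (6.26 FPKM, the others 4.60 to 4.86) and Trf in 1 wild-type non-BT library (236.0 FPKM, the others 184 to 189). The genotype effect on Hfe differed between preparations by the test of the difference itself, at 1.34 ± 0.33 for non-BT minus B cells and -1.55 ± 0.33 for B minus T cells. Both calls depended on the setting. They were lost with no animal block, with quantile normalization and with no filter on low values (adjusted p from 0.0628 to 0.116).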

How the results depend on the processing

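The replicate block raised the members called in young B cells from 0 to 6 (adjusted p from 0.00925 to 0.0457, with 1.13% of all genes lower) and in the B cell average from 1 to 6 (1.47%). It changed no other count beyond 1.5 times, and the shared numbers are not known to pair animals in young B cells. For young B cells array weights and the fit without the old animals numbered 2 gave 2. The fit of young groups (1.43% of all genes lower) and that without the old animals numbered 1 (0.675%) gave 6. For young T cells (0) array weights gave 2, young groups alone 3 (0.532%) and leaving out the old animals numbered 2 gave 4. The B cell average gave 0 with a pseudocount of 0.1, no filter, quantile scaling or no Psmb9-labelled libraries, 3 with weights or without the old animals numbered 2, and 4 without those numbered 1. Young non-BT cells (1) gave 0 with no filter, TPM or no Psmb9-labelled libraries, and 2 with weights or with young groups alone (4.16% of all genes lower in the latter). The non-BT average (1) gave 0 with no filter, TPM or without the old animals numbered 1, and 2 without those numbered 2. Weights gave 2 in the T cell average, as did leaving out the old animals numbered 2, and 1 for age in homozygous T cells. Both Hfe differences between preparations gave 0 with no animal block, no filter or quantile scaling, and that of non-BT and B cells also with a pseudocount of 0.1. Members lower without overlap in non-BT cells became 1 of 2 with quantile scaling in young and old animals, and 0 with TPM in old ones. Ftl1 with age in homozygous B cells, 0.15, became -0.13 (quantile) and -0.03 (TPM). Leaving out 1 library gave 0 to 3 calls in young B, 0 to 4 in the B average, 0 to 3 in young T, 0 to 1 for age in homozygous T, 0 to 1 in young non-BT, 0 to 2 in the non-BT average and for age in homozygous non-BT cells, and 0 to 1 for both Hfe differences, where only young wild-type libraries were left out. Without overlap it gave 0 to 5 members in old B, 0 to 1 in old T and 2 to 4 in old non-BT cells. Where no share of all genes stands beside a count in this section, the count has no background to be read against. The causes were not tested. Of 4590 alternative values of single members, 189 changed the sign of an uncalled value. TPM moved the median gene by -0.16 to -0.33 in 5 age comparisons, and quantile scaling by -0.19 and -0.14 in non-BT against B and T cells. Depth was estimated, so no counting interval is given.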
